A study of Mus musculus with 4 samples.

Results

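The killer lectin-like receptor (Klr) family was described as the genes whose symbol begins with Klr and a lower-case letter, with pseudogene symbols left out. The rule found 26 of the 31053 genes in the deposited table, among them 11 Klra, 5 Klrb and 3 Klrc genes, and all 26 are annotated as protein-coding on chromosome 6. Each had at least 1 UMI (unique molecular identifier, 1 per captured RNA molecule) in the cells kept here, and 23 had at least 10. The 4 sample records carry the same labels and stand for 1 group: mice of genotype Col10a1Cre;Rosa26-Tdtomato with Irx3 +/Δ and Irx5 +/- alleles, called Irx3/5 heterozygous controls, at 8 weeks, with no PTH in the title. Cells came from trabecular bone of both ends of the tibia by enzymatic digestion, and were measured by droplet single-cell RNA sequencing (10x Genomics). Col10a1-Cre acts in hypertrophic chondrocytes, so the recombined cells are of the skeletal lineage, and every mouse carried the Cre, the reporter and the Irx alleles. All barcodes carry 1 suffix and nothing ties a cell to a record, so the data are 1 library without replicates and no test between groups was possible.

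Klr genes encode C-type lectin-like receptors that lie in the membrane of natural killer (NK) cells and some other leukocytes, most of them from a gene cluster called the NK gene complex. The Ly49 receptors (Klra genes) bind MHC class I as homodimers, and most of them inhibit the cell through a tyrosine motif that recruits phosphatases such as Ptpn6, while a few activate it through the adaptor Tyrobp. The NKR-P1 receptors (Klrb1 genes) bind lectins of the Clec2 family. CD94 (Klrd1) pairs with an NKG2 chain (Klrc genes) to read the MHC class Ib molecule H2-T23, and NKG2D (Klrk1) binds MHC-like ligands of stressed cells.

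The table held 15014 barcodes with 500 to 80413 UMIs (median 3812), and 10485 cells were kept. These held 5617 Klr UMIs, 80.9% of all Klr UMIs in the table. The barcodes left out for a high mitochondrial share held 597 Klr UMIs, those marked as doublets 711, and those with few genes 20. Classes were named from marker genes after clustering without the Klr genes, and NK-like and T-like cells were told apart in a second clustering of the lymphoid cells. In the 84 NK-like cells, Gzma was seen in 79 cells (94.0%), Eomes in 70 (83.3%) and Ncr1 in 28 (33.3%), while Cd3d, Cd3e and Cd3g had 4, 2 and 7 UMIs. Among the 191 T-like cells, Cd3d was seen in 165 (86.4%), and Ncr1 had 10 UMIs. A further 29 lymphoid cells with both Ncr1 and Cd3e raised were left unnamed. An NK-like sub-cluster of 21 of these 84 cells also had 1187 UMIs of the neutrophil gene S100a8, in 17 of its cells, so the summed NK-like values are given with and without it. Erythroid-like cells, which should lack these receptors, had a Klr UMI in 2.41% of 1909 cells (median depth 6259 UMIs) and at most 0.629% for any member (Klrd1), and this serves as the level that free RNA gives. Levels are CPM, UMI counts of a class scaled to a common total. They are not scaled by gene length, so each gene is compared between classes and not with other genes. Intervals in brackets are exact 95% intervals that cover counting error only.

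The promoters of 5 Klra genes are shown because these genes were found in different cells: Klra4 and Klra8 in NK-like cells, Klra17 and Klra2 in myeloid and dendritic cells, and Klra6 in T-like cells. Each is the 250 bases before the RefSeq start on the minus strand (build GRCm38.p6), 5′ to 3′, with capitals marking the letters TTGCNNAA, a form of the C/EBP recognition sequence, on either strand. The windows are chr6:130067272-130067521 for Klra4, chr6:130129899-130130148 for Klra8, chr6:129876673-129876922 for Klra17, chr6:131247363-131247612 for Klra2 and chr6:130026955-130027204 for Klra6.
Klra4: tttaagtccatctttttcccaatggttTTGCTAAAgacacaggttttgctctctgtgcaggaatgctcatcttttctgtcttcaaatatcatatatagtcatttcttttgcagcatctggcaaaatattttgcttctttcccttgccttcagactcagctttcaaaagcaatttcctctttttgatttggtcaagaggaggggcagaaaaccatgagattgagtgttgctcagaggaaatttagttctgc
Klra8: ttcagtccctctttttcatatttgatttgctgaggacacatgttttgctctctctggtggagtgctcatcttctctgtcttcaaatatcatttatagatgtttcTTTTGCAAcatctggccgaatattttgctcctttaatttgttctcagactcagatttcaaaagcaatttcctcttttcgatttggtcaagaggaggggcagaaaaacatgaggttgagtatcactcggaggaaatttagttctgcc
Klra17: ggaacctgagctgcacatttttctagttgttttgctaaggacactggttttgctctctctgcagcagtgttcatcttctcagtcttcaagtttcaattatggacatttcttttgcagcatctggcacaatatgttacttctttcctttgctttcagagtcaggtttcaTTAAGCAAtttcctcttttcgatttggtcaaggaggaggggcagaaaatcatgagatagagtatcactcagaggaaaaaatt
Klra2: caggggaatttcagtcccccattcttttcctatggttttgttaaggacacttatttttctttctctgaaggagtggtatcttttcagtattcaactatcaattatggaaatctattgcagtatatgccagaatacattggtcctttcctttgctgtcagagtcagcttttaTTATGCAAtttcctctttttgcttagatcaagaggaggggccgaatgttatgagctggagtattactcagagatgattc
Klra6: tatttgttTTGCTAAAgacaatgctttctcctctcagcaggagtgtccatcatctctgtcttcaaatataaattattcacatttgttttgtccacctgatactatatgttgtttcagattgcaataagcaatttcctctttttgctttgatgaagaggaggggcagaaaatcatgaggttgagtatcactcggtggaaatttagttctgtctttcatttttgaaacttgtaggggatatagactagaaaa

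The windows of Klra4 and Klra8 were 84.5% identical, and that of Klra17 was 79.0% identical to that of Klra4 and 74.6% to that of Klra2. The longest run that these 5 windows share, GCAATTTCCTCTTTT, was in 7 of the 11 Klra windows, against 0.0304% of 32851 promoter windows of all genes. The 8 bases that end 4 bases into this run were TTAAGCAA in Klra17 and TTATGCAA in Klra2, which match TTGCNNAA on the opposite strand. They were AAAAGCAA in Klra4 and Klra8 and ATAAGCAA in Klra3, Klra6 and Klra9, which do not match. This difference was noticed with the expression values known and was not tested. In all, TTGCNNAA was in 11 of 28 windows of 23 members, and in 10 of these members, against 9.56% of all windows. Windows of the same member can overlap, and the windows of all genes were not matched to these for base composition. The TATA motif TATAAA was in 10 of the 28, against 12.4% of all. The Runx motif TGTGGT was in 9, against 14.0%, and the Gata motif AGATAA in 3, against 9.99%. The Ets motif ACAGGAAGT, the PU.1 motif GAGGAAGT and the T-box motif AGGTGTGA were in none of the 28. Klrd1, Klrg1 and Klri2 had no entry.

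NK-like cells were 0.801% of the kept cells and held 1703 of the 5617 Klr UMIs, or 30.3% (29.1 to 31.5). Their summed Klr level was 4921 CPM (4690 to 5160), against 54.4 CPM over all other kept cells, 90.5 times as high (85.5 to 95.8). T-like cells held 17.5% of the Klr UMIs, at 1224 CPM (1149 to 1303). Neutrophil-like cells, a much larger class, held 12.9% at 29.8 CPM, and monocyte or macrophage-like cells 11.9% at 104 CPM. The 29 unnamed lymphoid cells, 0.277% of the kept cells, held 521 Klr UMIs, or 9.28%. The plasmacytoid dendritic-like class had 418 CPM (370 to 469), the conventional dendritic-like class 403 CPM (350 to 462), the B lineage-like class 15.9 CPM and the erythroid-like class 4.88 CPM. Without the 21 cells with S100a8, NK-like cells had 4470 CPM and 22.6% of the Klr UMIs. When cells were instead gated 1 by 1, on UMIs of at least 2 NK markers and none of Cd3d, Cd3e or Cd3g, the NK gate took in 196 cells, of which 79 were among these 84, with 949 CPM.

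**Figure D1:**
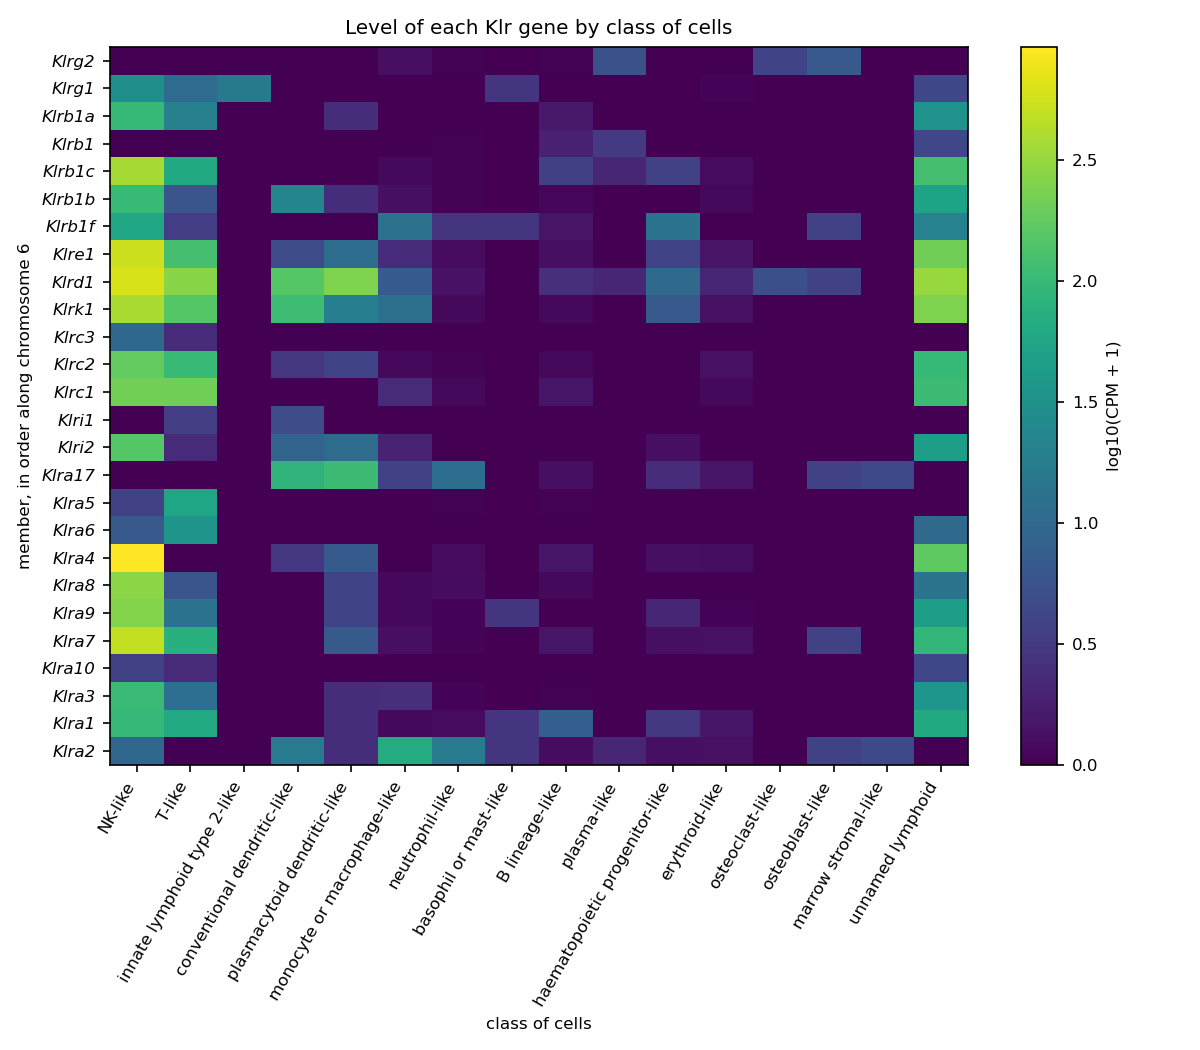
Level of each of the 26 Klr genes (rows, in their order along chromosome 6) in each named class and in the unnamed lymphoid cells (columns), as log10 of CPM plus 1. The NK-like and T-like columns hold most rows, while Klra2, Klra17 and Klrb1f are also seen in myeloid columns and Klrd1 in both dendritic columns.

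Of the 22 members with at least 20 UMIs in all, 19 were at least 2 times higher in NK-like cells than in all other kept cells and 0 at least 2 times lower. Over all 13615 genes tested this way, 16.3% were higher and 13.4% lower. The median log2 ratio of the 22 members was 7.07, against 0.30 for all genes (7.06 and 0.50 with genes at 0 set to 3 UMIs). The members not among the 19 were Klra2, at 0.762 times the other cells (0.157 to 2.24), and Klra17 and Klrb1, with no UMI in NK-like cells. The 4 members below 20 UMIs were Klrg2 with 12, Klrc3 and Klri1 with 4 each and Klra10 with 3. The highest ratios were those of Klra8 (1019), Klra4 (876), Klra9 (551) and Klri2 (334), and Klra8 ranked 2nd, Klra4 4th, Klra9 6th and Klri2 7th of all genes tested.

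**Figure D2:**
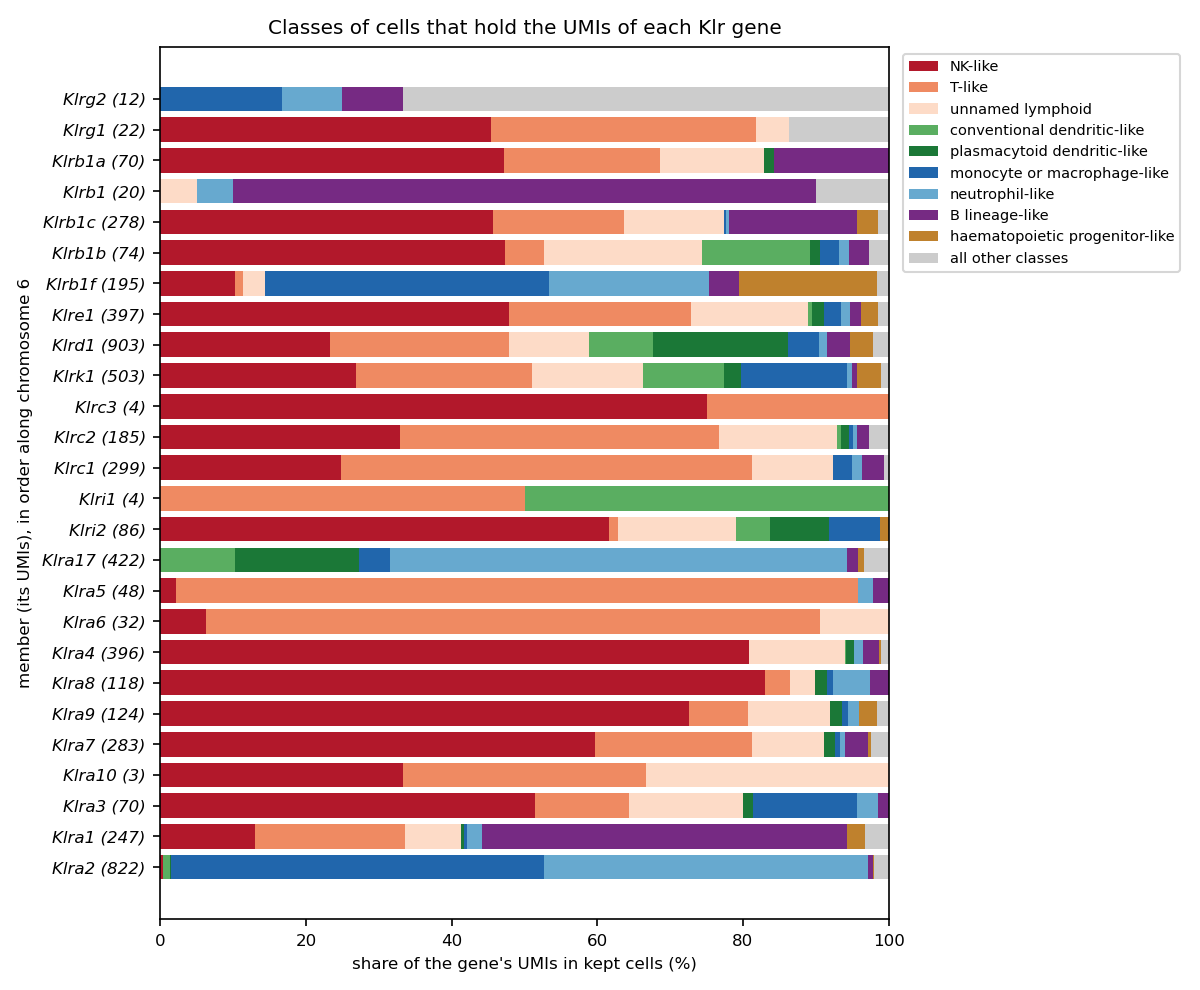
Share of each member's UMIs (horizontal axis, percent) found in each class of kept cells, with 1 bar per gene. Klra4 and Klra8 lie mostly in NK-like cells, Klra5 and Klra6 in T-like cells, Klra2 in monocyte or macrophage-like and neutrophil-like cells, and Klra1 has 50.2% of its UMIs in B lineage-like cells.

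In T-like cells 16 of the 22 members were at least 2 times higher than in all other kept cells and 1 lower, where 15.6% of genes were higher and 16.9% lower. In the unnamed lymphoid cells 19 of the 22 were higher and 0 lower (all genes 15.4% and 8.18%), as many higher as in NK-like cells. In plasmacytoid dendritic-like cells 4 of the 22 were higher and 2 lower (all genes 20.1% and 9.71%), near the shares of all genes, and in conventional dendritic-like cells 5 were higher and 1 lower (all genes 13.4% and 17.5%). In monocyte or macrophage-like cells 2 were higher and 13 lower (all genes 14.1% and 17.9%).

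Among the Ly49 genes, the 2 activating receptors had the highest ratios of NK-like over T-like cells. Klra4 (Ly49D) had 320 UMIs in 70.2% of NK-like cells, or 925 CPM (826 to 1032), against 0 UMIs in T-like cells. A count of 0 allows up to 3.73 CPM there, and with T-like cells set to that level the ratio was 248. This value leaves out the counting error in NK-like cells. Klra8 (Ly49H, which recognises a cytomegalovirus protein) had 98 UMIs in 29.8% of NK-like cells, or 283 CPM (230 to 345), against 4.98 CPM in T-like cells. Its ratio was 56.9 (21.5 to 213).

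The inhibitory Ly49 receptor genes Klra9, Klra3, Klra7 and Klra1 were found in both lymphoid classes. Klra9 (Ly49I) had 260 CPM in NK-like cells, against 12.4 CPM in T-like cells (ratio 20.9, 10.9 to 45.1). Klra3 (Ly49C) had 104 CPM in NK-like cells, against 11.2 CPM in T-like cells (9.29, 4.39 to 21.9), and Klra7 (Ly49G) had 488 CPM, against 75.9 CPM (6.44, 4.78 to 8.77). Klra1 (Ly49A) had 92.5 CPM in NK-like cells, against 63.4 CPM in T-like cells, and its ratio of 1.46 (0.906 to 2.31) included no difference. Klra5 (Ly49E) and Klra6 (Ly49F) ran the other way. Klra5 had 1 UMI in NK-like cells, against 45 UMIs in T-like cells (0.0516, 0.00128 to 0.303), and Klra6 had 2 UMIs, against 27 (0.172, 0.0198 to 0.685). Summed over the 11 Klra genes, the ratio of NK-like over T-like cells was 8.40 (7.19 to 9.84).

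**Figure D3:**
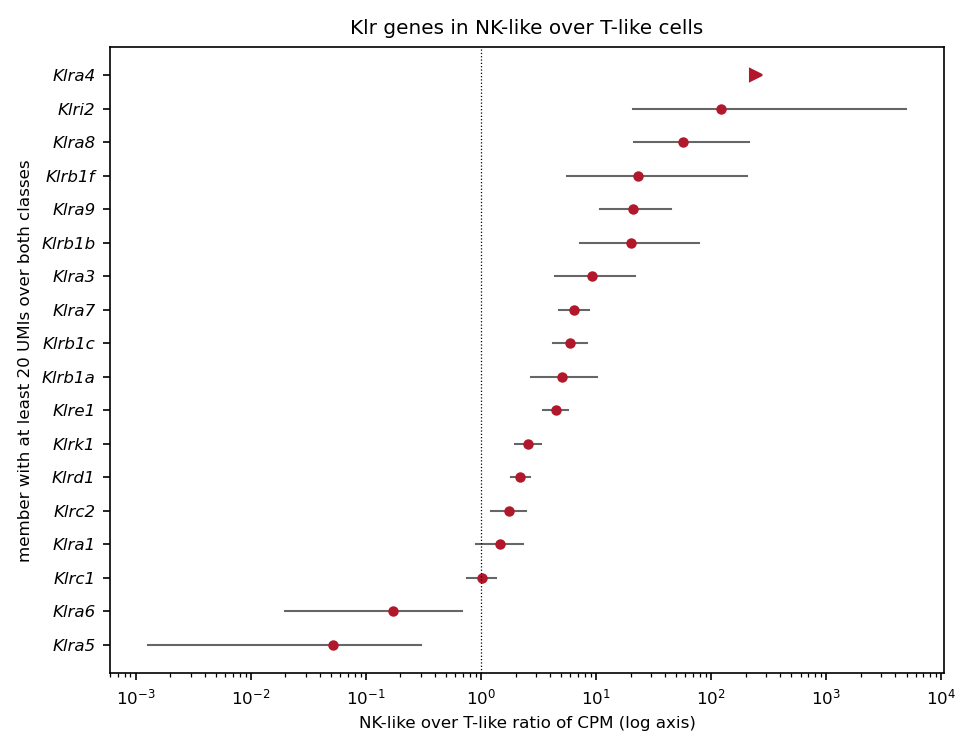
NK-like over T-like ratio of CPM (logarithmic axis) for the 18 members with at least 20 UMIs over both classes, with exact 95% intervals for counting error. The arrow for Klra4 marks a lower bound, Klrc1 sits at 1.02, and Klra5 and Klra6 lie below 1.

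Over both lymphoid classes, 18 members reached 20 UMIs, and 13 were at least 2 times higher in NK-like than in T-like cells and 2 at least 2 times lower. Of all 6029 genes tested, 7.51% were higher and 7.31% lower. The summed Klr level was 4.02 times as high (3.71 to 4.35), or 3.65 times without the 21 cells with S100a8. The 10 NK markers summed to 18998 CPM in NK-like cells, against 5600 CPM in T-like cells, and the 14 T markers had 4083 CPM in T-like cells. Cells were also gated 1 by 1. The T gate required a Cd3d, Cd3e or Cd3g UMI, at least 2 T markers and fewer than 2 NK markers. By this rule it left out T cells with 2 or more NK markers. It held 44 cells, of which 31 were among the 191 T-like cells. The gated T cells had 82.1 CPM, and the ratio of gated NK over gated T cells was 11.6.

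The Klrb1 genes, which encode the NKR-P1 receptors, were 7.03 times as high in NK-like as in T-like cells when summed (5.36 to 9.33). Klrb1c (NK1.1, an activating receptor and a standard NK surface marker) had 127 UMIs in 71.4% of NK-like cells, or 367 CPM, against 50 UMIs in 16.2% of T-like cells, or 62.2 CPM (5.90, 4.22 to 8.36). Klrb1b, an inhibitory receptor for Clec2d, had 35 UMIs or 101 CPM in NK-like cells, against 4 UMIs in T-like cells (20.3, 7.27 to 78.7). Klrb1a had 95.4 CPM in NK-like cells, against 18.7 CPM in T-like cells (5.11, 2.70 to 10.1). Klrb1f had 20 UMIs in NK-like cells, against 2 in T-like cells, but 11 of the 20 were in the 21 cells with S100a8, and its NK-like level was 35.1 CPM without them, against 57.8 CPM with them. Klrb1 itself had 20 UMIs in all, 16 of them in B lineage-like cells and none in NK-like or T-like cells. Klrb1b and Klrb1c share 14.5% and 7.07% of the 90-base windows in the last 400 bases of their transcripts with other genes, so a few of their reads may have been split or dropped.

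The genes of the CD94 and NKG2 receptors were found in both lymphoid classes, and the sum of the Klrc genes had a ratio of NK-like over T-like cells of 1.28 (1.03 to 1.58), below those of the Klra and Klrb sums. Klrd1 (CD94) had 210 UMIs in 76.2% of NK-like cells, or 607 CPM (527 to 695), against 222 UMIs in 50.8% of T-like cells, or 276 CPM (241 to 315), a ratio of 2.20 (1.81 to 2.67). Klrc1 (NKG2A, the inhibitory chain) had 214 CPM in NK-like cells, against 210 CPM in T-like cells (1.02, 0.763 to 1.34). Klrc2 (NKG2C, the activating chain) had 176 CPM in NK-like cells, against 101 CPM in T-like cells (1.75, 1.23 to 2.47), and Klrc3 had 3 and 1 UMIs. Klrc1 shares 30.6% of its end windows with Klrc2, so the split between these genes is uncertain. With a mitochondrial limit of 5%, Klrc1 had 120 CPM in 33 NK-like cells, against 364 CPM in 24 T-like cells, a ratio of 0.329. It was 0.836 without the 21 cells with S100a8.

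CD94 reaches the surface with an NKG2 chain, so the cells were also counted jointly. Of the NK-like cells with a Klrd1 UMI, 45 of 64 (70.3%, 57.6 to 81.1) also had a Klrc UMI, against 41 of 97 T-like cells (42.3%, 32.3 to 52.7). In plasmacytoid dendritic-like cells it was 1 of 65, and in conventional dendritic-like cells 1 of 24. Over all NK-like cells, with or without Klrd1, 57 of 84 had a Klrc UMI, a share close to that of the cells with Klrd1. Over all T-like cells it was 57 of 191. Whether the 2 genes go together within a class was not tested. There were 0.657 Klrc UMIs per Klrd1 UMI in NK-like cells, 1.13 in T-like cells, 0.0120 in plasmacytoid and 0.0127 in conventional dendritic-like cells.

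Of the remaining receptors, Klrk1 (NKG2D) had 135 UMIs in 69.0% of NK-like cells, or 390 CPM, against 122 UMIs in 26.2% of T-like cells, or 152 CPM (2.57, 2.00 to 3.31). Klre1, which pairs with a Klri chain, had 549 CPM in 79.8% of NK-like cells, against 123 CPM in 24.1% of T-like cells (4.46, 3.48 to 5.74). Its activating partner Klri2 had 53 UMIs in 35.7% of NK-like cells, against 1 UMI in T-like cells, while the inhibitory partner Klri1 had 4 UMIs in all and none in NK-like cells. Klre1 and a Klri gene were seen together in 26 NK-like cells, against 2 T-like cells. Taken singly, Klre1 was in 67 and a Klri gene in 30 of the 84 NK-like cells, against 46 and 3 of the 191 T-like cells. Klrg1, a cadherin receptor of mature NK and T cells, had 10 UMIs in NK-like cells, against 8 in T-like cells, and Klrg2 had 12 UMIs in all, 4 of them in 49 plasma-like cells.

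T-like cells were uneven, and 1 sub-cluster of 63 cells, with the T cell receptor gene Trdc in 30 of them (47.6%), held 640 of the 984 Klr UMIs of the class. Its level over all Klr genes was 2005 CPM. Klrc1 was seen in 47.6% of its cells at 404 CPM, Klrd1 in 76.2% at 326 CPM and Klra7 in 27.0% at 185 CPM. Klra5 and Klra6 were concentrated there too, with 42 of 45 and 23 of 27 T-like UMIs. Klra5 was in 9 and Klra6 in 14 of the 63 cells, and 1 cell had both, against a product of the shares of 2 cells. The sub-cluster of 49 cells led by Cd8b1 had 70 Klr UMIs or 347 CPM, of which 56 were Klrd1 UMIs, seen in 46.9% of its cells at 277 CPM, and 1 of its 23 cells with Klrd1 had a Klrc UMI. The 47 cells led by Icos had 391 CPM, and 32 cells led by Cd3g had 1684 CPM, with Klrb1c at 174 CPM and Klrk1 at 277 CPM. The 2 sub-clusters with more Klr UMIs also had more of the NK markers. The 10 NK markers summed to 9095 CPM in the cells with Trdc and 6854 CPM in those led by Cd3g, each with 8 raised, Gzma, Prf1 and Eomes among them. They summed to 1629 CPM in the cells led by Cd8b1 and 2575 CPM in those led by Icos, each with 5 raised, and their part in the Klr levels was not tested. At a mitochondrial limit of 5%, which left 24 T-like cells, Klra5 had 113 CPM and Klra6 had no UMI.

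**Figure D4:**
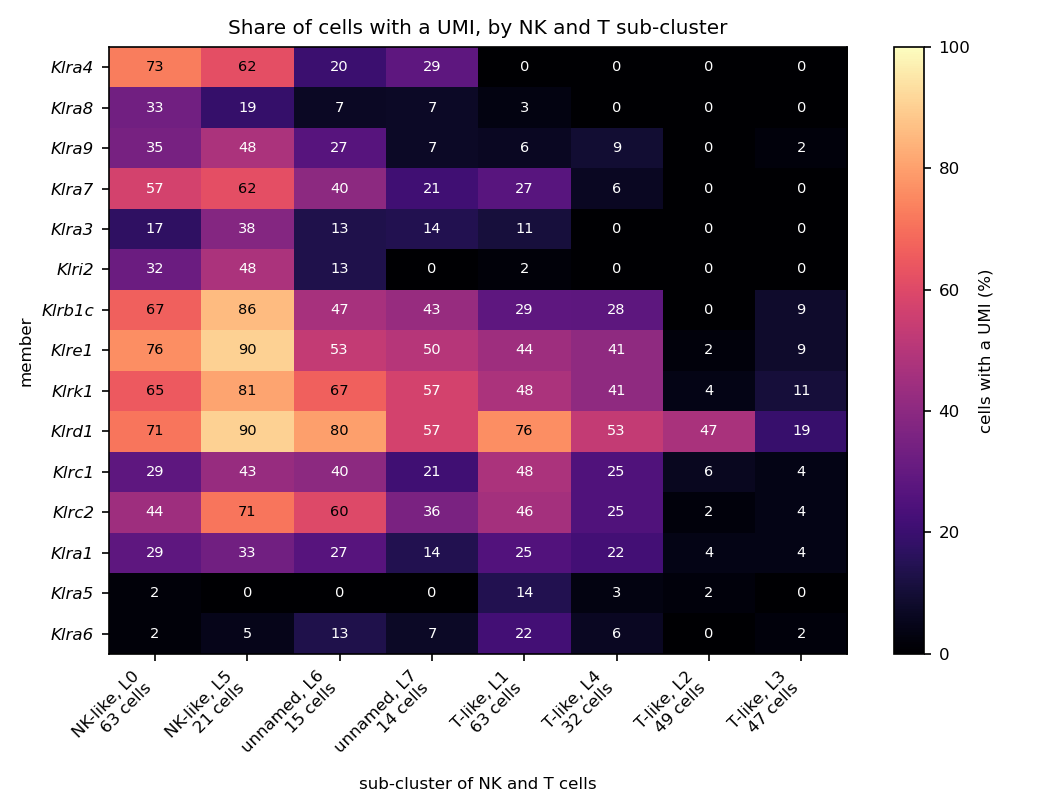
Share of cells with a UMI (colour and printed numbers, percent) for 15 members (rows) in the 8 lymphoid sub-clusters (columns): 2 NK-like, 2 unnamed and 4 T-like, from left to right. Klra4 is seen in 73.0% and 61.9% of cells of the NK-like sub-clusters and in no T-like sub-cluster, and Klra5 and Klra6 stand out in the first T-like column, the sub-cluster with Trdc.

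Single NK-like cells carried varied sets of these receptors. The median cell had UMIs of 8 Klr genes (at most 13) and 18.5 Klr UMIs (2 to 65). Of the 84 cells, 77 (91.7%, 83.6 to 96.6) had a Klra UMI and 63 (75.0%) had at least 2 Klra genes, with a median of 3 and a maximum of 6. T-like cells had a Klra UMI in 62 of 191 (32.5%), and erythroid-like cells in 1.10%. After thinning each cell to 1000 UMIs, the shares were 61 of 84 NK-like cells (72.6%, 61.8 to 81.8), 27 of 187 T-like cells (14.4%) and 0.168% of erythroid-like cells. Median depths were 3544.5 UMIs in NK-like and 4020 in T-like cells. The NK-like share was 59.5% at 500 UMIs per cell and 87.7% at 2000, so the number of receptors per cell is a lower limit set by depth.

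Among 120 pairs of members counted in NK-like cells, joint counts are set beside the product of the 2 shares as a description. Klra4 and Klra7 were together in 39 cells, against a product of 34.4, and Klrd1 and Klre1 in 57, against 51.0. Klra8 and Klra9 were together in 14 cells, against 9.52. Klrc1 was together with Klra8 in 3 cells, against a product of 8.04, with Klra4 in 14, against 19.0, and with Klra7 in 11, against 15.8. The pairs named are a few of the 120 and were not picked by a rule set beforehand. Cells were counted without thinning, so differences in depth between cells were not removed. None of these joint counts was tested.

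The NK-like cells were also divided by lists of maturation genes without Klr members, such as Itgam and Cx3cr1 against Cd27 and Emb. This gave 43 cells with more mature-list UMIs (median depth 2893), 39 with more immature-list UMIs (median depth 4339) and 2 with equal numbers, and 5 and 1 cells of the first 2 groups lay 1 UMI from the boundary. The mature list also holds Zeb2, which had 113 CPM in NK-like cells and 248 CPM in all other kept cells. Whether RNA from other cells moved NK-like cells between these groups was not tested. The summed Klr level was 1.02 times as high (0.923 to 1.12) in the mature-list as in the immature-list cells. Of the 16 members with 20 UMIs, 0 were 2 times higher and 0 lower, where 6.1% of 2640 genes were higher and 3.79% lower. Klra7 had a ratio of 0.711 (0.506 to 0.988). Klrg1, known as a marker of mature NK cells, had 7 UMIs in the mature-list cells, against 0 in the immature-list cells.

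Both dendritic-like classes had Klrd1 and Klra17 but few other members. Klrd1 had 167 UMIs in 74.7% of 87 plasmacytoid dendritic-like cells, or 246 CPM (210 to 286), against 79 UMIs in 35.3% of 68 conventional dendritic-like cells, or 154 CPM (122 to 192), a ratio of 1.60 (1.21 to 2.11). Klra17 (Ly49Q, an inhibitory receptor known from plasmacytoid dendritic cells and neutrophils) had 106 CPM in 49.4% of the plasmacytoid cells, against 83.8 CPM in 36.8% of the conventional cells (1.26, 0.855 to 1.89). Klrk1 ran the other way, with 12 UMIs or 17.6 CPM in plasmacytoid cells, against 56 UMIs or 109 CPM in conventional cells (0.162, 0.0789 to 0.305). Of the 6620 genes tested, 29.0% were at least 2 times higher in plasmacytoid cells and 9.4% lower, and of the 3 members that reached 20 UMIs 0 were higher and 1, Klrk1, was lower. The summed Klr level had a ratio of 1.04 (0.863 to 1.25). The direction for Klrd1 and Klra17 holds only for the narrow plasmacytoid class. In 3 alternatives with a wider class (248 to 268 cells), the ratio of plasmacytoid over conventional cells was 0.406 to 0.428 for Klrd1, 0.272 to 0.296 for Klra17 and 0.268 to 0.302 for the summed Klr level.

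Markers of NK and T cells were low in these classes. Conventional dendritic-like cells had no UMI of Cd3d, Cd3e, Cd3g, Ncr1, Gzma or Eomes. Plasmacytoid dendritic-like cells had no Cd3d, Cd3e or Cd3g UMI, 1 Ncr1 UMI and 16 Gzma UMIs in 2 cells, and their 10 NK markers summed to 171 CPM, against 18998 CPM in NK-like cells. Of the 14 T markers 8 were seen there. They summed to 126 CPM, against 4083 CPM in T-like and 16.2 CPM in monocyte or macrophage-like cells. Neutrophil markers had 13343 CPM in plasmacytoid cells, against 281811 CPM in neutrophil-like cells, and their part in the Klra17 level was not tested. The plasmacytoid values depend on the clustering: where the class was wider, at a lower resolution, with doublets kept or with more mitochondrial RNA allowed, its summed Klr level was 110 to 111 CPM, Klrd1 had 53.8 to 57.1 CPM and Klra17 20.5 to 23.1 CPM.

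Conventional dendritic-like cells also differed from monocyte or macrophage-like cells. Klrd1 was 25.5 times as high in the conventional dendritic-like cells (17.2 to 38.4), Klra17 30.1 times (17.0 to 55.4) and Klrk1 9.66 times (6.69 to 13.9). Klra2 was at 0.239 times (0.103 to 0.476), and Klrb1f had 0 UMIs in conventional dendritic-like cells, against 76 in monocyte or macrophage-like cells. Thus 3 of 5 members tested were at least 2 times higher and 2 lower, where 5.22% of 9901 genes were higher and 18.6% lower. Klrb1b had 11 UMIs in conventional dendritic-like cells, or 21.4 CPM (10.7 to 38.3).

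Klra2 (Ly49B) and Klra17 were the myeloid members of the Ly49 group. Klra2 had 421 UMIs in 31.9% of monocyte or macrophage-like cells, or 65.1 CPM (59.1 to 71.7), 366 UMIs in neutrophil-like cells, or 15.1 CPM, and 3 in NK-like cells. Among the monocyte or macrophage-like sub-clusters it ran from 13.3 CPM (7.59 to 21.6) in cells led by Ccl2 and 19.2 CPM in cells led by Itga1 and Rnase2a to 119 CPM in cells led by Vcan and Fn1, where 51.8% of 166 cells had a UMI. Cells with Ace had 139 and 140 CPM in 2 sub-clusters and 36.0 CPM in another, which also had C1qa, and 13 cells led by the interferon-induced genes Phf11d and Ifi205 had 269 CPM (172 to 400). Klra17 had 18 UMIs or 2.79 CPM in monocyte or macrophage-like cells and 265 UMIs or 10.9 CPM (9.63 to 12.3) in neutrophil-like cells, and no UMI in NK-like or T-like cells. In the neutrophil-like cells Klra17 was 3.92 times as high (2.43 to 6.71) as in the monocyte or macrophage-like cells, and Klra2 was 0.231 times as high (0.200 to 0.267). Of 5 members tested, 1 was at least 2 times higher in neutrophil-like cells and 4 lower, where 8.93% of 11433 genes were higher and 26.9% lower.

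Across the neutrophil-like clusters named here, Klra17 and Klra2 were highest in the last 2. Klrb1f (an activating NKR-P1 receptor) was low in this class. In cells led by Elane and Mpo, genes of promyelocytes, Klra17 had 0.572 CPM, Klra2 1.00 CPM and Klrb1f 3.29 CPM (2.09 to 4.94). In cells led by Camp and Ngp, Klra17 had 0.753 CPM and Klra2 2.04 CPM, and in cells led by Fpr2 and Ly6g they had 2.87 and 4.89 CPM. In cells with Retnlg and Cxcr2, genes of mature neutrophils, Klra17 had 32.8 CPM (26.0 to 40.9) and Klra2 63.9 CPM (54.2 to 74.9). Cells led by Cxcl2 had 104 CPM of Klra17 (88.2 to 121) and 99.1 CPM of Klra2 (84.0 to 116), each in 17.6% of 735 cells. Klrb1f had 1.94 CPM in the Camp cluster and no UMI in the last 2 clusters. Those clusters were shallower, at a median of 3447 and 1834 UMIs per cell, against 18422 in the cells led by Elane. A low level of Klrb1f there could have gone unseen. Klra17 and Klra2 were together in 23 of the 735 cells led by Cxcl2, against a product of 22.6. Klrb1f also had 76 UMIs in monocyte or macrophage-like cells, of which 35 and 28 were in the 2 sub-clusters with Itga1 and Rnase2a, at 29.0 and 21.5 CPM, and 37 UMIs or 12.6 CPM in progenitor-like cells, which was 5.05 CPM when 1000 UMIs were required per cell.

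**Figure D5:**
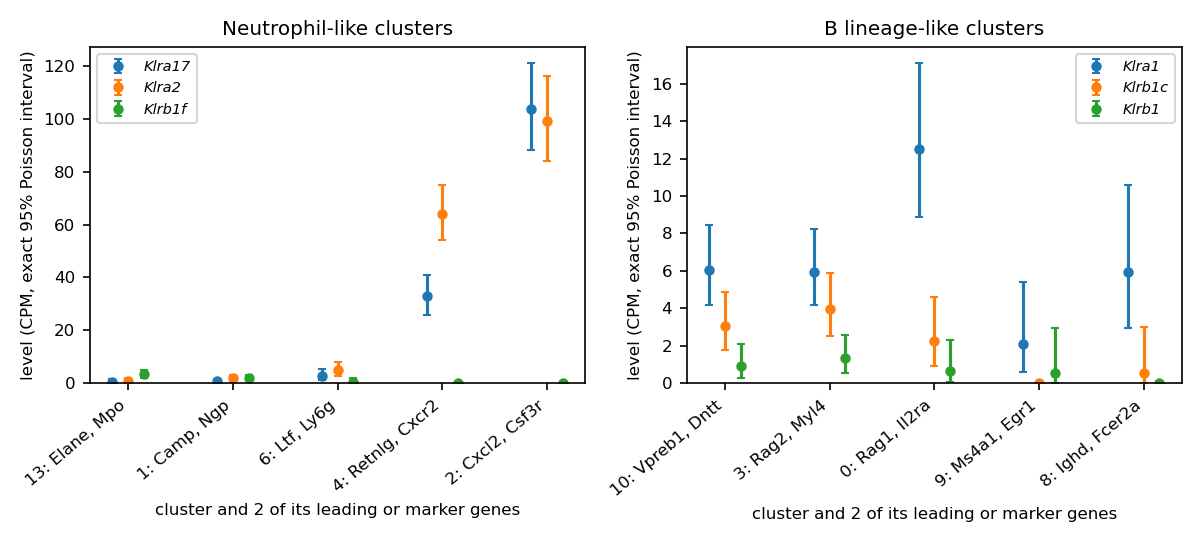
CPM with exact 95% intervals of Klra17, Klra2 and Klrb1f in 5 neutrophil-like clusters (left) and of Klra1, Klrb1c and Klrb1 in 5 B lineage-like clusters (right), each cluster named by leading genes. Klra17 is at 104 CPM in the Cxcl2 cluster, against 0.572 CPM in the Elane cluster.

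The B lineage-like class held 124 of the 247 Klra1 UMIs (50.2%). Its Klra1 level was 6.69 CPM (5.56 to 7.97), seen in 104 of 3482 cells (2.99%, median depth 3093.5), against 0.510 CPM and 0.367% of erythroid-like cells. By cluster it was 6.06 CPM in cells led by Vpreb1, 5.94 CPM in cells with Rag2, 12.5 CPM (8.90 to 17.1) in cells led by Rag1 and Il2ra, 2.10 CPM (0.573 to 5.38) in cells with Ms4a1 and 5.92 CPM in cells with Fcer2a and Ighd. The class level was 2.50 CPM at a mitochondrial limit of 5%. Klrb1c had 49 UMIs or 2.64 CPM in the class, with 3.03 CPM in the Vpreb1 cluster and 3.96 CPM in the Rag2 cluster, and Klrb1a had 11 UMIs. Klrb1 had 0.863 CPM (0.493 to 1.40) there, against no UMI in erythroid-like cells. Osteoclast-like, osteoblast-like and marrow stromal-like cells had 5, 7 and 2 Klr UMIs, basophil or mast-like cells 5 and the 18 innate lymphoid type 2-like cells 1.

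Genes that work with these receptors were counted from lists that had been chosen with earlier results known, as the number at least 2 times higher and lower in NK-like than in all other kept cells. Among 18 adaptors and signalling genes 11 (61.1%) were higher and 3 (16.7%) lower, against 16.3% and 13.4% of all genes. Their median log2 ratio was 1.86, against 0.30 for all genes. The signalling adaptor Sh2d1a was 57.4 times and Cd247, the CD3 zeta chain, 52.0 times as high, while the kinase Syk was at 0.347 times and the phosphatase Ptpn6 at 0.294 times. Tyrobp, the adaptor of Ly49D and Ly49H, was 2.08 times as high and is also a myeloid gene, and Hcst, that of NKG2D, was 5.53 times as high. Of 11 ligand genes tested, 3 (27.3%) were higher and 1 (9.09%) lower (median 1.08, or 1.32 with genes at 0 set to 3 UMIs). The MHC class I gene H2-K1 was 4.73 times as high and the NKG2D ligand gene Ulbp1 0.241 times. The NKG2D ligand gene Raet1e and the Klrg1 ligand gene Cdh1 had no UMI in NK-like cells, against 28 and 204 in the other cells. The intervals of their ratios, 0 to 29.3 and 0 to 3.80, included no difference, so absence from NK-like cells cannot be told.

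The other NK lists held markers that named the NK-like class, whose ratios the naming fixed: Eomes, Il2rb, Ccl5, Gzma, Gzmb, Prf1, Nkg7 and Ncr1. The counts that follow leave these out. Of 11 other transcription factors 9 were higher and 1 lower (median 3.50), with Tbx21 130, Ikzf3 1.94 and Zeb2 0.455 times as high. Of 10 other cytokine and cytokine receptor genes 9 were higher and 0 lower (median 3.51), with Ifng 177, Ccl3 4.16 and Il15ra 1.16 times as high. Of 10 other granule genes 7 were higher and 0 lower (median 4.01, or 4.41 with genes at 0 set to 3 UMIs), with Srgn 0.893 and Lamp1 0.599 times as high. Of 12 other NK receptors and lectins of the complex 3 (25%) were higher and 1 (8.33%) lower, against 16.3% and 13.4% of all genes. Among these, Cd160 was 43.3 times as high, Clec12a 0.149 times, and Pilrb1 had no UMI in NK-like cells, against 988 in the others. The naming markers Eomes, Ccl5, Gzma, Prf1 and Ncr1 had ratios of 315, 176, 904, 322 and 193, as a description. Of the 10 genes outside the family with the highest ratios and at least 50 UMIs in NK-like cells, 6 were naming markers (Gzma, Prf1, Eomes, Ncr1, Ccl5 and Il2rb, the last at 124). The others were Adamts14 (212), Itga2 (203), Qrfp (143) and Serpinb9 (119).

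The Klra genes differ in number and sequence between mouse strains, the labels give no strain background, and the counts rest on the gene models of the mm10 build. Reads from an allele that is absent from that build would be assigned to another gene or dropped, and this was not tested.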

How the data were processed

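The values are raw UMI counts, deposited by the authors as 1 sparse matrix whose header gives Cell Ranger 3.1.0. The submitters' processing notes give mm10 as the build and list Seurat 3, and the filters behind the deposited barcodes are not given in the sources used here. A second deposited matrix of added sequences was not used here. Raw counts of the 4 pooled records were analysed as 1 library.

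A barcode was kept if it had 500 or more UMIs, 200 or more genes and no more than 10% of UMIs from mitochondrial genes. Scrublet in scanpy 1.11.5 marked 522 of 11007 (4.74%) as doublets, which were removed. The 2000 most variable genes without Klr genes gave 30 principal components, 15 neighbours and Leiden clusters (leidenalg 0.10.2, resolution 1, seed 0). Lymphoid clusters were clustered again. No first cluster was named conventional dendritic, so monocyte and dendritic clusters were also clustered again, which was added after seeing this. A marker was raised at 2 times the CPM of other cells with a UMI in 10% of cells. A cluster took the type with the most raised markers, at least 3, unless another type had more of its 10 leading genes or its median depth was below 0.333 of the library's with no own marker leading. Lymphoid sub-clusters with both Ncr1 and Cd3e raised stayed unnamed. These naming rules were set after clusters were seen.

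Summed counts are CPM with exact Poisson intervals, shares have Clopper-Pearson intervals and ratios conditional binomial intervals, all at 95%, and a count of 0 allows up to 3 UMIs. With 1 library no test was run: a gene counted as higher or lower at 2 times, given 20 UMIs over both sides, with 0 set to 3. Medians of log2 ratios used 0.5 added UMIs. Shares were also taken after thinning to 1000 UMIs. Only the ratios of genes, with their intervals and the limit of 2 times, were tested on simulated counts. The CPM intervals, shares, medians and thinning were not. Promoters are from RefSeq and gene models from GENCODE M21, both GRCm38. Figures were drawn with matplotlib 3.10.9, and scipy 1.17.1, pandas 2.3.3, igraph 0.11.9, numpy 2.4.6 and anndata 0.12.19 ran under Python 3.11.15.

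The members, lists and comparisons were chosen with earlier results of these data known. Values are given for each member with at least 10 UMIs, for the 2 highest and 2 lowest genes of each list, and for the 10 non-member genes with the highest NK-like ratio and at least 50 UMIs in NK-like cells. Tyrobp, Hcst and the genes that describe clusters were named after their values were seen.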

Additional observations from a re-analysis of the deposited data

How the results depend on the processing

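All 26 members kept a UMI under each alternative. Of 24 ratios of plasmacytoid over conventional dendritic-like cells under the alternatives, 11 lay on the other side of 1 from the main ratio. They were Klrd1 (0.406 to 0.428, main 1.60) and Klra17 (0.272 to 0.296, main 1.26) in the 3 wider classes and the summed level (0.268 to 0.996, main 1.04) in those and 2 more. Ratios of NK-like over T-like cells were recomputed only for Klra5, Klra6, Klrc1, Klrd1 and the summed level. Of these 51 ratios 5 did, all for Klrc1 (0.329 to 0.954, main 1.02). Of 10 ratios of neutrophil-like over monocyte or macrophage-like cells, all for Klra2, 0 did. These ratios of the other members were not recomputed. Of 98 alternative values of the main results, 61 stayed within the counting interval of the main value and 37 moved outside it. Of 388 for single genes, 55 moved outside it. Counted apart, whether or not within that interval, 8 of the 98 and 48 of the 388 lay more than 1.5 times above or below the main value. The NK-like share of Klr UMIs (30.3%) was 23.4% at a mitochondrial limit of 5%, 26.5% with doublets kept, 22.4% at resolution 2, 36.1% with cells gated 1 by 1 and 22.6% without the sub-cluster with S100a8. In the order of a mitochondrial limit of 5%, a limit of 20%, at least 1000 UMIs, the gate and that sub-cluster left out, the NK-like level was 4548, 5323, 5245, 949 and 4470 CPM, its ratio over other cells 97.4, 96.5, 96.2, 18.6 and 82.2, and its ratio over T-like cells 3.20, 4.82, 4.40, 11.6 and 3.65. With doublets kept the level was 5257 CPM and the ratio over T-like cells 4.44, at resolution 0.5 this ratio was 4.41, and at resolution 2 the level was 4545 CPM and the ratio over other cells 75.1. The thinned share of NK-like cells with a Klra UMI was 31.8% under the gate, 59.5% at 500 UMIs, 87.7% at 2000 and 91.7% unthinned. T-like cells had 1422 CPM at the 5% limit, 1103 at 20%, 82.1 under the gate and 1316 with the rule on Ncr1 and Cd3e dropped. Plasmacytoid dendritic-like cells had 110.1, 109.7 and 110.5 CPM at the 20% limit, with doublets kept and at resolution 0.5, and 349 CPM with Klr genes kept in the clustering. Why these values moved was not tested, except that the gate and the wider plasmacytoid classes took in other cells. Of the 196 gated NK cells, 33 were neutrophil-like and 26 basophil or mast-like by cluster. The T gate held 44 cells, 31 of them T-like by cluster, and by its rule left out cells with 2 or more NK markers. No plasmacytoid class was found at the 5% limit, and no conventional dendritic class at a second resolution of 0.5. The gate named only NK and T cells, so by its rule it gave no dendritic class of either kind. No paired analysis was possible because the records are pooled in 1 library, which also means that no record could be left out. Depth limits the per-cell counts of receptors and all values of members under 10 UMIs.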
